A study of Mus musculus with 20 samples.

Results

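Spleens of mice carrying a PRMT5 and a TCL1 transgene were compared with spleens of mice carrying the PRMT5 transgene alone, in each class of cells that single-cell RNA sequencing could separate. The comparison used 9 of the 20 libraries of the series, 1 library per mouse. The 5 PRMT5 spleens bore the transgene labelled Eµ-hPRMT5 and the 4 PRMT5/TCL1 spleens bore Eµ-hPRMT5/hTCL1, on the strain labelled C57BL/6N. All 9 mice therefore carried human PRMT5 cDNA behind a mouse VH promoter and IgH-µ enhancer, a pair of elements active in the B lineage. By genotype the groups differed in the human TCL1 transgene, which is also expressed in B cells. No spleen without the PRMT5 transgene enters the comparison, so the values show what differed between double and single transgenics and not what PRMT5 itself did. Spleens were taken when a mouse met the removal criteria of the study, live cells were loaded without selection, and the ages of these mice are not given in the sources used here. The study reports a longer median survival for mice with the PRMT5 transgene alone than for double transgenics. Age at removal may therefore differ between the groups, and it cannot be told apart from genotype here. The PRMT5 line had more than 1 founder, and the title of PRMT5 spleen 3 is the name of a founder. The title of PRMT5/TCL1 spleen 1 ends in a suffix, -RT, that the sources used here do not explain for this mouse. The study uses RT for Richter's transformation, the progression of chronic lymphocytic leukemia to an aggressive lymphoma. Crosses with TCL1 mice were made from line L25 and from other founder lines, and the line of the other 8 mice is not stated for each. PRMT5 spleens are numbered 1 to 5 and PRMT5/TCL1 spleens 1 to 4, and values are listed in that order throughout.

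Barcodes were kept if they held 1500 or more UMIs (unique molecular identifiers, each standing for 1 captured transcript), 200 or more genes and no more than 10% mitochondrial UMIs, which left 41186 of the 46643 barcodes that held 500 UMIs or more. Cells were then sorted by marker counts. B cells held at least 3 UMIs of Cd79a and Cd79b together, no Cd3d, Cd3e or Cd3g UMI and fewer than 20 Jchain UMIs (14846 cells). T cells held at least 2 Cd3d, Cd3e and Cd3g UMIs and at most 1 Cd79a or Cd79b UMI (14170 cells). Myeloid cells held at least 5 Lyz2 UMIs, no CD3 UMI and at most 1 Cd79a or Cd79b UMI (3513 cells), and 8657 barcodes met no definition. UMIs were summed per library and class, and genes were compared across mice with edgeR's quasi-likelihood test, with p-values adjusted by the Benjamini-Hochberg method over all genes tested in a class and called at an adjusted p below 0.05. Gene levels are counts per 1000000 UMIs of a class (CPM) after TMM scaling, unless stated otherwise. Summed marker levels, single dendritic cell markers, and Cd3g, Lck and Trac in B cells are CPM without that scaling. Differences are log2 of PRMT5/TCL1 over PRMT5, with their standard error (SE).

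PRMT5 is an enzyme that symmetrically dimethylates arginines of histones and of the Sm proteins of the spliceosome, with Wdr77 as its partner in the methylosome. TCL1 is a coactivator of AKT, and expressing it from B-lineage elements gives mice a leukemia of Cd5+ B cells that models chronic lymphocytic leukemia (CLL). In such spleens the expanding B cells sit among T cells and myeloid cells, where neither transgene is meant to be expressed and which can be read in the same libraries.

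The transgenes themselves could not be read, because the files count mouse genes. Mouse Tcl1 had 0 UMIs in every library and class, which checks nothing about the human transgene. Mouse Prmt5 in B cells was at 30.6, 31.04, 29.4, 52.6 and 19.6 CPM in the PRMT5 spleens and 24.6, 20.1, 25.1 and 28.4 CPM in the PRMT5/TCL1 spleens. These ranges overlapped, with a log2 difference of -0.41 ± 0.27 (SE; adjusted p = 0.777). Mouse Wdr77 overlapped too, at 36.3 to 49.0 CPM against 28.7 to 54.9 CPM.

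Libraries held 9348094 to 72440894 UMIs in the PRMT5 group and 37096237 to 48898249 in the PRMT5/TCL1 group. Sums per class ran from 2690317 to 33908040 UMIs in B cells, 793220 to 25882644 in T cells and 302036 to 13870184 in myeloid cells, so myeloid values are the least precise. Summed B-cell markers reached 2305 to 8856 CPM of B-class UMIs in PRMT5 spleens and 5529 to 9340 in PRMT5/TCL1 spleens, against 211 to 616 CPM in T cells. The myeloid class was led by neutrophil genes, with S100a8, S100a9, Retnlg, Cxcr2, Ngp and Camp summing to 6820 to 232462 CPM in PRMT5 spleens and 55842 to 145639 CPM in PRMT5/TCL1 spleens. The same 6 genes reached 32.5 to 3934 CPM against 146 to 3506 CPM in B cells and 10.4 to 6936 CPM against 3.54 to 6513 CPM in T cells. Summed erythroid markers were at 2.01 to 374 CPM against 10.8 to 2225 CPM in B cells and 0.605 to 155 CPM against 1.89 to 540 CPM in T cells, where PRMT5/TCL1 spleens 1 and 2 were above every single transgenic. The ranges of the groups overlapped in each class, and the part of these levels in the results was not tested. Between 3 and 50 barcodes were shared by any pair of libraries, where random overlap gave 5.11 to 48.4.

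Of the 9 libraries, 3 stood apart from the rest of their group. In PRMT5 spleen 4, B cells had a median of 16126 UMIs, 51.0% of barcodes met no class definition and only 128 T cells were found. In PRMT5 spleen 5, 85.6% of the Trbv UMIs of T cells came from Trbv12-1, and 36 myeloid cells were found. In PRMT5/TCL1 spleen 4, genes with transcripts under 700 bases were low against genes over 3000 bases, by a log2 ratio to the median library of -1.91 in B cells, -1.81 in T cells and -2.37 in myeloid cells, while the other 8 libraries ran from -0.51 to 0.74. List medians are given with the values they took when 1 library was left out, where this turned or largely moved them.

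**Figure D1:**
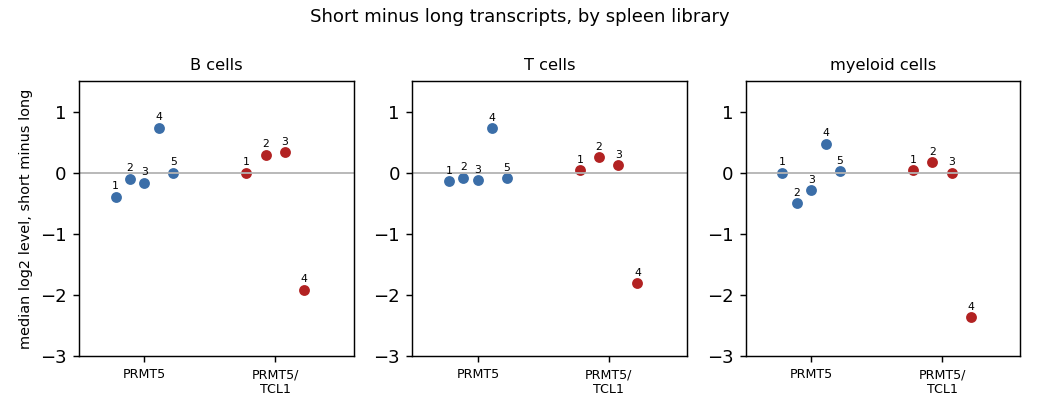
Median log2 level of short transcripts (under 700 bases) minus that of long transcripts (over 3000 bases), relative to the median library (y axis), for each of the 9 libraries in B, T and myeloid cells. PRMT5/TCL1 spleen 4 lies at -1.91, -1.81 and -2.37, and the other points lie between -0.51 and 0.74.

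The share of B cells among kept barcodes varied more within the groups than between them. It was 40.3, 28.0, 33.7, 19.2 and 7.73% in the PRMT5 spleens and 87.3, 8.14, 31.8 and 48.1% in the PRMT5/TCL1 spleens. These shares depended on the rule that B cells hold no CD3 UMI. When Cd3g UMIs were allowed in B cells, an alternative chosen after the data were seen, the shares were 40.5, 28.5, 34.5, 51.7 and 8.01% against 87.6, 17.9, 40.7 and 54.8%. PRMT5 spleen 4 thereby went from 883 to 2380 B cells and its unclassified share from 51.0 to 18.5%, and PRMT5/TCL1 spleen 2 went from 302 to 663 B cells. In the B cells of these 2 libraries so defined, Cd3g was at 90.2 and 99.7 CPM and Lck, a Src-family kinase of T cells, at 48.6 and 75.8 CPM. Trac, a T-cell receptor gene, was at 2.54 and 0.417 CPM. Under the main definition, with no CD3 UMI, Lck was already at 43.6 and 55.9 CPM in B cells of these 2 libraries. It was at 177 CPM in B cells of PRMT5/TCL1 spleen 3. By rule the added barcodes held no Cd3d, Cd3e, Trac, Trbc1 or Trbc2 UMI. The Trac level therefore shows nothing about what the added cells are. The share tests that follow use the main definition. The means were 25.8 ± 12.7% (SD, n = 5) and 43.8 ± 33.3% (SD, n = 4), a difference of 18.1 percentage points (two-sided exact permutation test, p = 0.333; adjusted p = 0.688 over 20 share tests). The difference was 3.59 points without PRMT5/TCL1 spleen 1 and 29.98 points without PRMT5/TCL1 spleen 2. With 5 mice against 4, the smallest p that this test can give is 0.0159. T cells took 34.9, 49.0, 42.5, 2.78 and 82.1% of the PRMT5 spleens and 3.57, 43.5, 39.8 and 20.8% of the PRMT5/TCL1 spleens, with means of 42.2 ± 28.5% (SD, n = 5) and 26.9 ± 18.5% (SD, n = 4) and an exact permutation p of 0.413. Their difference of -15.3 points was -5.37 without PRMT5 spleen 5, -7.55 without PRMT5/TCL1 spleen 1 and -25.2 without PRMT5 spleen 4. Myeloid cells had means of 9.33 ± 10.2% (n = 5) and 9.66 ± 11.5% (n = 4), with an exact permutation p of 0.905. Unclassified barcodes had means of 22.7 ± 16.3% (n = 5) and 19.6 ± 8.03% (n = 4), with an exact permutation p of 0.921. The shares of a library sum to 100%, so these 4 values are not independent.

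**Figure D2:**
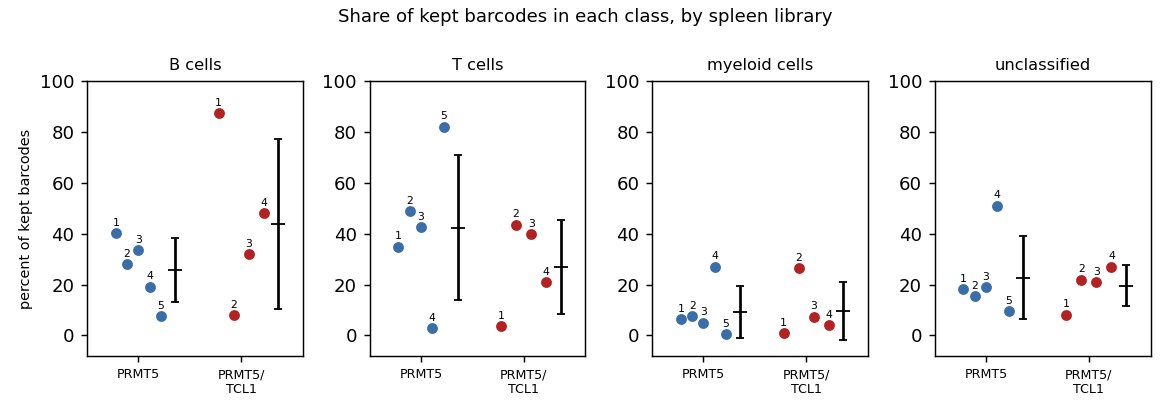
Share of kept barcodes in percent (y axis) called B, T, myeloid or unclassified, with 1 point per mouse and bars for the mean ± SD of 5 PRMT5 and 4 PRMT5/TCL1 spleens. The groups overlap in every class, and B cells span 7.73 to 40.3% in the PRMT5 group and 8.14 to 87.3% in the PRMT5/TCL1 group.

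Within the classes, 16 marker shares were compared, with every cell thinned to 1500 UMIs. No share passed the adjusted threshold, the lowest adjusted p being 0.688. Cd5, the T-cell glycoprotein that marks CLL and B1 cells, was detected in 0.375, 4.58, 1.43, 3.62 and 4.11% of B cells of PRMT5 spleens and in 5.95, 2.98, 6.97 and 9.06% of B cells of PRMT5/TCL1 spleens. In Cd5, 3 of the 4 double transgenics lay above every single transgenic and PRMT5/TCL1 spleen 2 lay inside their range, with means of 2.82 ± 1.82% (n = 5) and 6.24 ± 2.53% (n = 4) and an exact permutation p of 0.0635. Without thinning the means were 15.1% and 24.9%, and 0.279% and 0.116% of myeloid cells, which should lack Cd5, had a UMI of it after thinning. Cr2, the complement receptor of marginal zone and follicular B cells, was found in 9.58, 2.82, 1.78, 0 and 2.16% of B cells against 0.211, 0, 0.134 and 0.462%. PRMT5 spleen 4 alone among the single transgenics was at the level of the double transgenics (means 3.27 ± 3.68%, n = 5, and 0.202 ± 0.194%, n = 4; exact permutation p = 0.0794). Without thinning the Cr2 means were 9.13% and 0.963%, and without PRMT5 spleen 1 the thinned difference of -3.06 points was -1.49. Cd69, an early activation antigen, was detected in 50.2, 22.5, 23.2, 7.13 and 34.0% of B cells against 6.79, 7.28, 4.29 and 26.4%. PRMT5 spleen 4 was low and PRMT5/TCL1 spleen 4 high, so the groups overlapped. The Cd69 means were 27.4 ± 15.9% (n = 5) and 11.2 ± 10.2% (n = 4), with an exact permutation p of 0.175, and their difference of -16.2 points was -10.5 without PRMT5 spleen 1.

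In T cells, the thinned share with a Cd8a or Cd8b1 UMI was 42.2 ± 13.3% (n = 5) against 51.3 ± 8.93% (n = 4), and in B cells it was 0.444% and 0.593%. The difference of 9.09 points in T cells was 4.80 without PRMT5 spleen 1 and 14.1 without PRMT5 spleen 5. The share with Pdcd1, the PD-1 receptor, was 14.7 ± 9.91% (n = 5) against 19.9 ± 6.46% (n = 4). PRMT5 spleen 5, in which Trbv12-1 led, set the lower end of this range at 0.367%, and it had 0.163% of T cells with a Cd4 UMI. The Pdcd1 difference of 5.15 points was 1.55 without that library, 2.46 without PRMT5/TCL1 spleen 4 and 8.30 without PRMT5 spleen 4. In myeloid cells, Ly6c2, a surface protein of inflammatory monocytes, was found in 48.8, 57.9, 63.7, 81.8 and 30.6% of cells against 72.2, 90.3, 81.2 and 59.7%, and Mpo, the myeloperoxidase of primary granules, in 2.64, 1.32, 1.93, 8.59 and 2.78% against 3.70, 8.99, 6.96 and 6.48%. Both sets overlapped, with exact permutation p-values of 0.127 and 0.143, and the Ly6c2 difference of 19.3 points was 12.8 without PRMT5 spleen 5.

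No gene of the B class passed the adjusted threshold in edgeR's test, 0 of 10847 tested (0%), and 734 genes (6.77%) had an unadjusted p below 0.05, of which 314 (2.89%) were higher and 420 (3.87%) lower in PRMT5/TCL1 spleens. DESeq2 on the same sums called 70 of 10582 genes (0.662%), 21 higher and 49 lower, and 17 of the lower were antigen receptor genes. Hence no B-class gene below counts as changed by the main test. The 10 non-receptor genes with the smallest p at 20 CPM or more are given first, and all 10 were among the DESeq2 calls. At 235 genes (2.17%) the groups did not overlap, and all 10 were among these as well.

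Higher in the double transgenics were Serpinb6b, Ckb, H2-T22, Mpeg1, Gbp3 and Aig1. Serpinb6b, an intracellular inhibitor of serine proteases, was at 5.84, 4.48, 10.2, 3.74 and 11.3 CPM in the PRMT5 spleens and 61.3, 26.5, 41.8 and 22.95 CPM in the PRMT5/TCL1 spleens. The lowest PRMT5/TCL1 value was above the highest PRMT5 value, with a log2 difference of 2.43 ± 0.41 (SE; adjusted p = 0.259). Ckb, the brain-type creatine kinase that buffers ATP, was at 2.09, 1.72, 2.88, 3.14 and 4.29 against 20.8, 63.4, 9.68 and 14.8 CPM, with a log2 difference of 3.24 ± 0.55 (SE; adjusted p = 0.259). PRMT5/TCL1 spleen 2 was highest in Ckb and the other 3 double transgenics were still above every single transgenic. Mpeg1, the pore-forming perforin-2 of phagocytes and B cells, was at 6.28, 20.3, 20.2, 14.8 and 13.8 against 43.5, 48.5, 40.3 and 36.8 CPM, with a log2 difference of 1.49 ± 0.31 (SE; adjusted p = 0.410). H2-T22, a nonclassical class I molecule, was at 97.0, 98.3, 116, 166 and 121 against 238, 354, 271 and 305 CPM, with a log2 difference of 1.28 ± 0.23 (SE; adjusted p = 0.305). H2-T22 lies at chromosome 17, 36037128 to 36042747, minus strand (GRCm38), in a family of near-identical class I genes, so reads may be divided among copies and its value is uncertain. Gbp3, an interferon-inducible GTPase, was at 16.8, 30.01, 20.1, 27.2 and 38.9 against 49.2, 70.9, 60.6 and 69.8 CPM, with a log2 difference of 1.24 ± 0.26 (SE; adjusted p = 0.410), and it too has close paralogs. Aig1 was at 47.5, 44.1, 45.9, 30.7 and 37.4 against 66.4, 83.2, 97.6 and 70.4 CPM, with a log2 difference of 0.95 ± 0.20 (SE; adjusted p = 0.417).

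Lower in the double transgenics were Gm30211, Gnl3, Gadd45b and Mreg. Gnl3, the nucleostemin of the nucleolus, was at 169, 119, 141, 159.5 and 141 against 90.9, 59.3, 62.8 and 73.6 CPM, with a log2 difference of -1.02 ± 0.20 (SE; adjusted p = 0.394). Gadd45b, a stress-induced gene of the NF-kB response, was at 746, 161, 298, 267 and 291 against 115, 69.4, 47.3 and 71.4 CPM, with a log2 difference of -2.22 ± 0.47 (SE; adjusted p = 0.410). PRMT5 spleen 1 was far above the other single transgenics in Gadd45b, and the remaining 4 still lay above all 4 double transgenics. Mreg, which encodes melanoregulin, an organelle-trafficking protein, was at 48.6, 29.3, 72.0, 23.1 and 11.3 against 7.24, 8.58, 3.08 and 8.46 CPM, with a log2 difference of -2.45 ± 0.54 (SE; adjusted p = 0.501). Without PRMT5 spleen 4, adjusted p-values of the 10 genes ran from 0.0543 to 0.102, and from 0.129 to 0.501 with it.

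**Figure D3:**
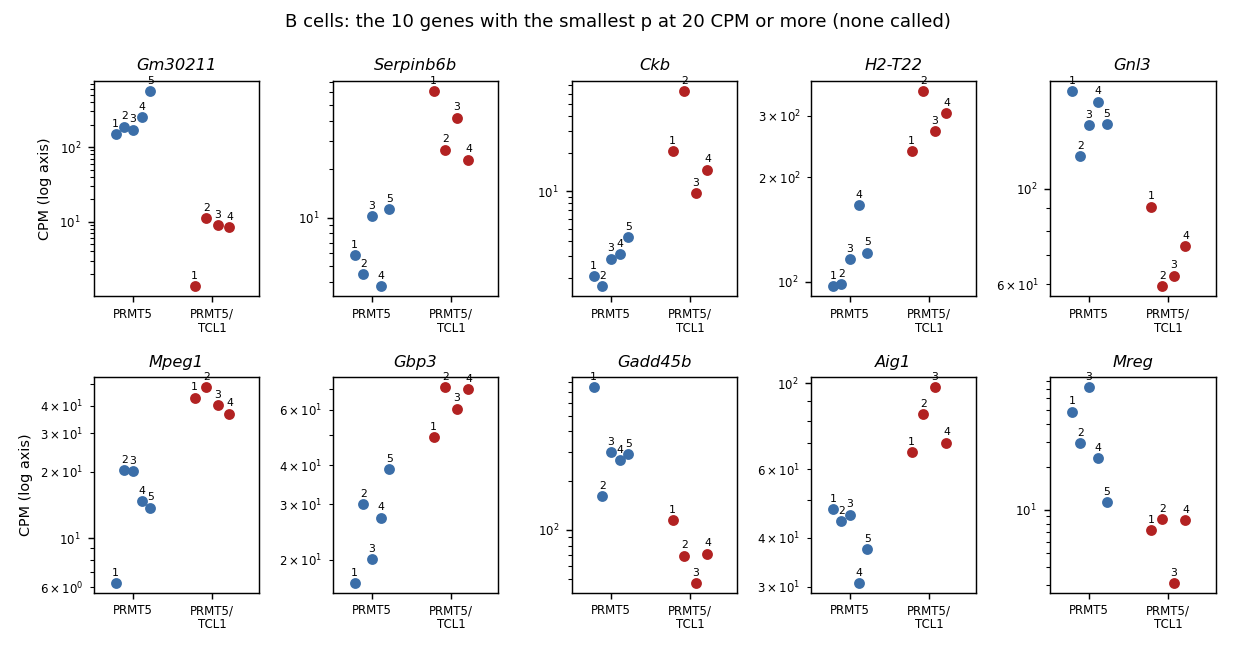
CPM of the B class on log axes for the 10 named genes, with 1 point per library in 5 PRMT5 and 4 PRMT5/TCL1 spleens. The groups do not overlap in any panel, as in Serpinb6b at 3.74 to 11.3 CPM against 22.95 to 61.3 CPM, and no gene passed the adjusted threshold of edgeR's test.

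Of the 10 genes, Gm30211 had the largest log2 difference. It was at 150.4, 188, 171, 253 and 566 CPM in the PRMT5 spleens and 1.36, 11.2, 9.04 and 8.41 CPM in the PRMT5/TCL1 spleens. Every single transgenic was at 150 CPM or more and every double transgenic at 11.2 CPM or less, with a log2 difference of -5.19 ± 0.71 (SE; adjusted p = 0.129). The annotation gives it as a long noncoding RNA on the plus strand of chromosome 6, from 70719074 to 70740554 (GRCm38), a span that holds Igkj1, Igkj2, Igkj4, Igkj5 and the kappa constant gene Igkc (70726435 to 70726966) on the same strand. Reads of unspliced or rearranged kappa transcripts could be given to either gene, so the Gm30211 value is uncertain. Igkc itself was at 1131, 2954, 1262, 1383 and 1324 against 817, 213, 48.2 and 126.1 CPM, with a log2 difference of -2.42 ± 0.75 (SE; adjusted p = 0.627), and did not overlap between the groups. PRMT5/TCL1 spleen 3, lowest in Igkc, had 42077 Iglv UMIs, 99.6% of them Iglv1, where the other 8 libraries had 79 to 2339.

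Antigen receptor genes were left out of the ranking, and most mice differed in the leading V gene. In PRMT5 spleens the leading Ighv gene took 40.7% (Ighv5-6), 32.5% (Ighv5-9-1), 32.1% (Ighv6-3), 94.0% (Ighv12-3) and 69.8% (Ighv1-55) of Ighv UMIs of the B class. In PRMT5/TCL1 spleens it took 63.1% (Ighv8-2), 98.5% (Ighv5-9-1), 88.9% (Ighv1-9) and 89.4% (Ighv1-52). PRMT5 spleens 1 to 3 were the least dominated by 1 gene, and PRMT5 spleens 4 and 5 lay within or above the range of the double transgenics. The makeup of the B class therefore differed between mice by this measure, and its part in the B-class values was not tested. Ighv5-9-1 led in PRMT5 spleen 2 and PRMT5/TCL1 spleen 2, and Igkv12-89 led in PRMT5 spleen 5 and PRMT5/TCL1 spleen 1 (89.4% and 95.4% of Igkv UMIs).

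Sparc, a secreted collagen-binding glycoprotein, was seen almost only in double transgenics, and was chosen after its values were seen. It had 0, 0, 2, 0 and 1 UMIs in B cells of PRMT5 spleens and 296, 43, 62 and 453 in PRMT5/TCL1 spleens. Per UMI of the class the ratio of the group sums was 161 (95% exact interval 54.8 to 781, counting error only), with an adjusted p of 0.107 in edgeR and 9.98e-10 in DESeq2. edgeR called it with no low-count filter (adjusted p = 0.0265) and without PRMT5 spleen 4 (adjusted p = 0.0494). T cells held 0 or 1 Sparc UMI in each of the 9 libraries and myeloid cells 0 to 4.

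Leaving out PRMT5 spleen 4 gave 4 edgeR calls in B cells of 10742 genes (0.0372%). Besides Sparc they were Igkv6-20, Eps8 and Cks1b. Eps8, an adaptor of actin bundling and Rac signalling, was at 1.76, 2.76, 1.13, 29.6 and 2.45 against 15.3, 21.3, 22.4 and 18.8 CPM. Cks1b, the cyclin-dependent kinase subunit, was at 12.2, 12.8, 15.2, 297 and 14.7 against 40.7, 61.9, 49.0 and 37.1 CPM. In both genes PRMT5 spleen 4 was above every other library and the other 4 single transgenics were below every double transgenic. The log2 difference was 1.31 ± 0.86 for Eps8 and -0.59 ± 0.99 for Cks1b with all 9 mice, and 3.38 (adjusted p = 0.00521) and 1.80 (adjusted p = 0.0232) without that library. This omission gave the most B-class calls of all single omissions, and it removed the highest library in both genes. The adjusted p-values without it therefore describe the remaining mice and are not a test of the 2 genotypes.

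Of 19 genes of mature follicular and marginal zone B cells, 6 were higher and 13 lower in PRMT5/TCL1 spleens, 4 of them lower at an unadjusted p below 0.05 (background 3.87%), and the median was -0.20 beside -0.06 over all B-class genes. With 1 mouse left out the median ran from -0.43 (without PRMT5/TCL1 spleen 4; -0.42 without PRMT5 spleen 4) to -0.09 (without PRMT5 spleen 5), and it was -0.11, -0.13 and -0.31 without PRMT5 spleens 1 and 2 and PRMT5/TCL1 spleen 3. Fcer2a, the low-affinity IgE receptor CD23, was at 173, 35.5, 16.98, 0 and 20.2 against 0.724, 0, 0.359 and 0.398 CPM, with a log2 difference of -6.69 ± 1.62 (SE; adjusted p = 0.626). PRMT5 spleen 4 held none, while the other 4 single transgenics were far above all double transgenics. Ccr6, a chemokine receptor of follicular cells, followed the same pattern at 81.5, 12.1, 43.2, 0.170 and 5.52 against 1.09, 2.61, 0.430 and 0.647 CPM (log2 difference -4.87 ± 1.37, adjusted p = 0.626), as did Cr2 at 78.7, 10.002, 12.4, 0 and 15.9 against 2.38, 0, 0.717 and 2.54 CPM (log2 difference -3.86 ± 1.35, adjusted p = 0.702). Ccr7, which guides cells to the T zone, was at 1289, 411, 894, 192 and 172 against 154, 87.6, 141 and 289.6 CPM, with PRMT5/TCL1 spleen 4 inside the range of the single transgenics. Cd9, a tetraspanin of marginal zone and B1 cells, Mzb1 and Klf2 had log2 differences of 0.53, -0.05 and 0.02. Ighd, the heavy chain gene of IgD, was among the marker shares of thinned B cells. Its share was 25.4, 19.01, 25.7, 0.566 and 5.63% against 8.23, 12.6, 5.90 and 6.82% (exact permutation p = 0.302). It was highest in PRMT5 spleens 1 to 3, where the leading Ighv gene took the smallest share. The part of the makeup of the B class in this list, and in the CLL marker and receptor signalling lists below, was not tested.

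Surface markers of CLL and B1 cells were mostly higher, in 12 of 15 genes tested, with a median of 0.55 that was 0.83 without PRMT5 spleen 5. At an unadjusted p below 0.05, 1 member was higher (background 2.89%) and 1 lower (background 3.87%). The lower one was Fcer2a, given above, which is in both lists and was the only member that DESeq2 called. The higher one was Cd200, an inhibitory ligand, at 15.7, 16.9, 10.2, 9.18 and 26.1 against 26.1, 27.2, 26.96 and 23.8 CPM. All 4 double transgenics exceeded the single transgenics other than PRMT5 spleen 5. Cd5 was at 2.20, 37.2, 13.3, 29.6 and 31.9 against 45.6, 21.3, 55.4 and 43.7 CPM (log2 difference 0.88 ± 0.61, adjusted p = 0.788). PRMT5/TCL1 spleen 2 was again the low double transgenic. Ms4a1, the CD20 antigen, was at 82.7 to 1019 CPM against 669 to 1017 CPM.

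B-cell receptor signalling genes were higher in 16 of 21, and in 14 of 19 with a median of 0.29 without Cd79a and Cd79b, whose UMIs chose the cells. With them the median was 0.33, and it was 0.18 without PRMT5 spleen 4 and 0.19 without PRMT5/TCL1 spleen 4. At an unadjusted p below 0.05, Fcgr2b and Ptpn6 were higher, 2 of 21 (background 2.89%), and Cr2, given above and in both lists, was lower, 1 of 21 (background 3.87%). Fcgr2b, the inhibitory Fc receptor of B cells, was at 148, 282, 223, 118 and 188 against 398, 504, 367 and 434 CPM. The groups did not overlap, with a log2 difference of 1.15 ± 0.28 (SE; adjusted p = 0.626). Ptpn6, the SHP-1 phosphatase downstream of such receptors, was at 201, 161, 191, 181 and 264 against 228, 279, 392 and 301 CPM (log2 difference 0.59 ± 0.24, adjusted p = 0.702). Vav1, an exchange factor of the receptor cascade, did not overlap either, at 52.6 to 87.6 CPM against 88.1 to 94.0 CPM, with a difference of only 0.26 ± 0.20, so 2 of the 21 genes were higher with no overlap, beside 1.04% of all B-class genes. Cd79a and Cd79b, the signalling chains that chose the cells, had differences of 0.56 ± 0.41 and 0.49 ± 0.39.

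All 23 immediate early and activation genes were lower in PRMT5/TCL1 spleens, where 43.7% of all B-class genes were higher with no threshold. The median was -0.89, 5 genes reached an unadjusted p below 0.05 (background 3.87%), and no gene of the list was free of overlap. Nr4a3, an orphan nuclear receptor induced by antigen receptor signals, was at 65.0, 17.6, 54.7, 4.33 and 9.19 against 2.68, 2.24, 9.04 and 5.18 CPM (log2 difference -2.62 ± 0.81, adjusted p = 0.626). The other 4 were Nr4a2, Cd69, the phosphatase gene Dusp1 and Klf4, with log2 differences of -3.05 ± 1.10, -1.83 ± 0.75, -1.53 ± 0.66 and -1.56 ± 0.69. Among the most abundant, Junb was at 2179, 565, 778, 761 and 1159.7 against 472, 414, 444 and 1014 CPM and Nr4a1 at 1981, 334, 1063, 253 and 517 against 153, 86.2, 339 and 713 CPM. PRMT5 spleen 1 was highest and PRMT5/TCL1 spleen 4 was well above the other double transgenics in both. Leaving out PRMT5/TCL1 spleen 4 moved the median to -1.36, and leaving out PRMT5 spleen 1 moved it to -0.62. In T cells, 19 of 20 immediate early genes were lower too, with a median of -0.53. Without TMM scaling, the list summed in B cells to 14839 CPM in PRMT5 spleen 1 and 9904 CPM in PRMT5/TCL1 spleen 4. In T cells these sums were 5601 and 7242 CPM. Both libraries had the highest sum of their group in both classes. The classes come from the same mice and are not independent.

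Heat shock genes were lower in 11 of 12 with a median of -0.72 (-0.47 without PRMT5/TCL1 spleen 1), and 4 had an unadjusted p below 0.05 (background 3.87%). Hspa1a, the inducible Hsp70, was at 439.6, 1081, 352, 61.1 and 99.9 against 14.7, 112, 45.6 and 133 CPM (log2 difference -2.42 ± 0.90, adjusted p = 0.702), and Dnajb1, its cochaperone, at 348, 407, 245, 155 and 234 against 74.4, 119, 104 and 208 CPM (log2 difference -1.14 ± 0.37, adjusted p = 0.649). Both sets of values overlapped. The others were the cochaperone gene Dnaja1 and Hsph1, of the Hsp110 family, with log2 differences of -0.83 ± 0.28 and -1.49 ± 0.62. Hspa1a has the near-identical paralog Hspa1b, so reads may be divided between them. In T cells Hspa1a was at 149, 385, 199, 139 and 24.6 against 38.8, 39.7, 31.6 and 65.4 CPM (log2 difference -2.03 ± 0.61, adjusted p = 0.9995) and in myeloid cells at 25.1, 412, 189.8, 153 and 441 against 7.16, 84.0, 54.9 and 63.1 CPM (log2 difference -2.13 ± 0.72, adjusted p = 0.9999). The direction was the same in the 3 classes, which come from the same 9 mice and are not independent.

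Nucleolar genes of ribosome biogenesis were lower in 22 of 22, with a median of -0.45, and 6 had an unadjusted p below 0.05 (background 3.87%). Without PRMT5 spleen 4 the median was -0.19 and 1 of the 22 was higher. Ncl, the nucleolin that packages ribosomal DNA, was at 743, 535, 721, 1132 and 602 against 467, 442, 432 and 462 CPM, and Nop56, a core protein of box C/D particles, at 208, 129, 153, 155 and 162 against 98.2, 91.8, 79.6 and 123 CPM. Neither overlapped, and with Gnl3 they were the 3 genes of the list that did not, where 1.12% of all B-class genes were lower with no overlap. Nop58, Rrp9 and Nolc1 had differences of -0.72 ± 0.25, -0.66 ± 0.24 and -1.01 ± 0.38. Fbl, a methyltransferase of ribosomal RNA, and Npm1, nucleophosmin, had -0.17 ± 0.20 and -0.12 ± 0.42.

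The methylosome and its Sm and splicing substrates were lower in all 16 genes tested, with a median of -0.40 that moved to -0.11, with 5 of 16 higher, when PRMT5 spleen 4 was left out and to -0.26 without PRMT5/TCL1 spleen 4. Srsf7, a serine/arginine-rich splicing factor, was at 665, 488, 486, 518 and 437 against 285, 287, 179 and 379.9 CPM. It was the only gene of the list with no overlap (1.12% of all B-class genes were lower with none), with a log2 difference of -0.88 ± 0.27 (SE; adjusted p = 0.626). Srsf2 was at 476 to 671 CPM against 328 to 585 CPM, and Snrpb, which encodes an Sm protein that PRMT5 methylates, at 275 to 514 CPM against 278 to 373 CPM. Snrpe has a short transcript and was at 331, 251, 290.4, 624 and 359 against 344, 344, 389 and 78.9 CPM, with the lowest value in PRMT5/TCL1 spleen 4.

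Cell cycle genes of the B class turned with the mice and the scaling used. G2/M genes were higher in 10 of 22, with a median of -0.09, and in 22 of 22, with a median of 2.65, without PRMT5 spleen 4. Leaving out any other mouse gave medians of -0.42 to 0.05, and with all 9 mice scaled by library totals 18 of 22 were higher with a median of 0.25. Top2a, the mitotic topoisomerase, was at 8.59, 8.97, 5.87, 223 and 19.6 against 53.3, 75.0, 48.0 and 125 CPM. PRMT5 spleen 4 was highest, the other 4 single transgenics were below 20 CPM and the double transgenics lay between. S phase genes were higher in 4 of 21 (median -0.28) with all mice and in 19 of 21 (median 0.95) without that library, and the median was -0.58 to -0.19 without any other. Thinned Mki67 was detected in 12.2% of its B cells, against 0.214 to 1.52% in the other single transgenics and 1.74 to 6.82% in the double transgenics.

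Actin and S100 genes were higher in 13 of 16, with a median of 0.42. Vim, the intermediate filament vimentin, was at 725, 1331, 995, 909 and 1453 against 2137, 2289, 1836 and 2625 CPM, with no overlap and a log2 difference of 1.04 ± 0.29 (SE; adjusted p = 0.626). S100a4 was at 4.85, 8.62, 4.01, 2.97 and 8.58 against 30.8, 32.4, 14.99 and 1.39 CPM (log2 difference 1.80 ± 0.71, adjusted p = 0.702). In S100a4, 3 double transgenics were above every single transgenic, and PRMT5/TCL1 spleen 4, low in short transcripts, was below all of them. Bcl2 family genes were higher in 5 of 13 (median -0.35, and -0.20 without PRMT5 spleen 2), with Bcl2l11, which encodes the death-promoting Bim, at 106, 80.4, 58.0, 234 and 32.2 against 42.2, 53.7, 23.95 and 39.9 CPM (log2 difference -1.36 ± 0.52, adjusted p = 0.702) and the survival gene Bcl2 at 41.3, 84.8, 77.5, 37.6 and 99.0 against 148, 89.5, 93.2 and 98.8 CPM (log2 difference 0.66 ± 0.32, adjusted p = 0.728). Pmaip1, which encodes the death-promoting Noxa, had a log2 difference of -1.43 ± 0.55. Genes of class II presentation were higher in 6 of 11 (median 0.06), and checkpoint ligands and regulatory cytokines in 7 of 14 (median 0.02). Both medians changed sign with the mouse left out, spanning -0.11 to 0.19 and -0.17 to 0.25. Lgals9, which encodes the galectin ligand of Tim-3, was at 41.1, 12.8, 13.8, 17.1 and 51.8 against 47.1, 45.1, 67.8 and 73.5 CPM (log2 difference 1.10 ± 0.44, adjusted p = 0.702).

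Interferon-stimulated genes were higher in 21 of 26 in B cells, with a median of 0.64, and 7 had an unadjusted p below 0.05 in that direction (background 2.89%) and 1 in the other. Many such genes carry the interferon-stimulated response element, to which the factors activated by interferon bind. Promoters from 250 bases before to 50 after the start were taken from RefSeq (GRCm38.p6), and 18 of the 27 genes of the list had an entry. The letters GAAA followed after any 2 bases by GAAA again, on either strand, so that TTTC repeats in the same way on the other one, were in 11 of the 18 (61.1%) and in 1079 of 27025 promoters of all genes (3.99%). The list holds known interferon-stimulated genes, many of which carry the element. Its share therefore says nothing about the difference between the groups. Among the 11 was Ifi213, which was lower in the double transgenics, as given below. Other motifs were sought in heat shock, nucleolar and immediate early genes, lists that were mostly or all lower. Their shares were also above those of all promoters, at 33.3, 27.8 and 12.5% against 0.662, 8.09 and 2.03%. Windows of 30 bases are shown for Igtp, Gbp2 and Rsad2, the 3 listed genes whose B-class values did not overlap (1.04% of all B-class genes were higher with no overlap), for Gbp3, Gbp7 and H2-T22, unlisted interferon-inducible genes chosen after their values were seen, and for Isg15, a listed gene whose values overlapped. Capitals mark the match, and sequences run 5′ to 3′ on the strand of the gene.
Igtp (chr11:58199512-58199541, plus strand): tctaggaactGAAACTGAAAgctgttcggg
Gbp2 (chr3:142620594-142620623, plus strand): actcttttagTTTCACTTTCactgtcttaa
Rsad2 (chr12:26456553-26456582, minus strand): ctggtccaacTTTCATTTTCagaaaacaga
Gbp3 (chr3:142559995-142560024, plus strand): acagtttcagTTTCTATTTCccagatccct
Gbp7 (chr3:142530273-142530302, plus strand): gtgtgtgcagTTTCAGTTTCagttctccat
H2-T22 (chr17:36042914-36042943, minus strand): attggcttagTTTCACTTTCgaatccccaa
Isg15 (chr4:156200865-156200894, minus strand): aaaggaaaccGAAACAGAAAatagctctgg
The match ended 24, 49, 110, 29, 43, 181 and 56 bases before the start, in the order listed. Windows were also sought for Gbp6, Cxcl9 and Usp18, and none was found, so only genes with a match are shown. A match is a description of the letters and not evidence of a bound factor.

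In B cells Igtp, an immunity-related GTPase, was at 21.9, 23.5, 26.5, 44.4 and 44.4 against 49.4, 69.0, 62.5 and 66.2 CPM (log2 difference 0.94 ± 0.26, adjusted p = 0.626), and Gbp2, a guanylate-binding GTPase, at 8.04, 20.3, 11.6, 58.2 and 45.4 against 64.5, 190.2, 101 and 96.6 CPM (log2 difference 1.97 ± 0.58, adjusted p = 0.626). All 4 double transgenics were above all 5 single transgenics in both genes. Rsad2, the antiviral enzyme viperin, was low throughout but separate, at 0.220, 0.345, 0.721, 2.04 and 0.919 against 2.77, 3.73, 3.16 and 3.14 CPM (log2 difference 1.82 ± 0.58, adjusted p = 0.649). Gbp7 was at 11.1, 10.7, 9.06, 16.3 and 28.2 against 23.01, 46.6, 37.1 and 29.8 CPM (log2 difference 1.18 ± 0.36, adjusted p = 0.626), with PRMT5 spleen 5 inside the range of the double transgenics. Zbp1, a sensor of Z-form nucleic acids, was at 11.2, 10.3, 6.79, 36.7 and 31.9 against 43.6, 56.7, 88.7 and 29.2 CPM (log2 difference 1.49 ± 0.53, adjusted p = 0.702). Isg15, the ubiquitin-like modifier, was at 41.6, 10.7, 20.9, 38.9 and 40.1 against 41.2, 20.9, 70.9 and 17.4 CPM, and the groups overlapped. Ifi213 went the other way, at 15.4, 17.6, 48.8, 69.6 and 1.53 against 4.55, 1.86, 0.430 and 0.598 CPM (log2 difference -4.00 ± 1.05, adjusted p = 0.626). Ifi47, a GTPase, and Xaf1 also had an unadjusted p below 0.05, with log2 differences of 0.69 ± 0.26 and 1.06 ± 0.35. Leaving out each mouse in turn kept the median between 0.51 and 0.82.

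No gene of the T class passed the adjusted threshold, 0 of 11100 tested by edgeR (0%), with 504 (4.54%) at an unadjusted p below 0.05, of which 291 (2.62%) were higher and 213 (1.92%) lower. DESeq2 called 8 of 11079 (0.0722%), namely Grb7, Rln3, Itgad, Jdp2, Lsr and Cxcl2 as higher (0.0542%) and Ier5l and Ighg2b as lower in PRMT5/TCL1 spleens. Grb7, an adaptor that binds phosphorylated receptors, had the smallest p, at 3.79, 1.92, 2.15, 5.41 and 0.758 CPM in the PRMT5 spleens and 10.1, 26.004, 25.6 and 44.5 CPM in the PRMT5/TCL1 spleens. Every double transgenic was above every single transgenic, as in 0.685% of all T-class genes, with a log2 difference of 3.52 ± 0.54 (SE; adjusted p = 0.519). B cells of the double transgenics held Grb7 as well, at 46.5, 10.2, 5.67 and 18.5 CPM without TMM scaling, against 0.579, 1.49, 1.85, 14.8 and 13.8 in the single transgenics, and how far B-cell RNA contributed to the T-class value was not tested. Summed B-cell markers in T cells were 211 to 374 CPM in PRMT5 spleens and 335 to 616 CPM in PRMT5/TCL1 spleens.

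Cxcl2, a neutrophil chemokine, was at 4.86, 0.958, 2.95, 1.35 and 0.237 against 91.0, 3.37, 16.6 and 27.6 CPM in T cells, with PRMT5/TCL1 spleen 2 inside the range of the single transgenics. Atf3, a stress-induced transcription factor, was at 62.6, 31.9, 33.0, 54.1 and 25.2 against 16.01, 15.2, 15.1 and 24.03 CPM with no overlap (log2 difference -1.21 ± 0.30, adjusted p = 0.9995). Dck, the deoxycytidine kinase of nucleotide salvage, was at 25.1, 22.7, 19.6, 12.2 and 24.6 against 99.4, 37.6, 26.1 and 54.8 CPM with no overlap (log2 difference 1.31 ± 0.36, adjusted p = 0.9995). Kif22, a chromosome-bound kinesin, and Fbxo5, an inhibitor of the anaphase-promoting complex, were at 3.08, 5.11, 3.67, 16.2 and 6.07 against 27.8, 18.6, 9.89 and 31.9 CPM and 4.03, 2.56, 4.203, 13.5 and 13.4 against 65.7, 22.3, 10.3 and 43.8 CPM. Both were above all single transgenics in 3 of the 4 double transgenics, with PRMT5/TCL1 spleen 3 in the single transgenic range. The others of the 10 genes, Tmem65, Hspa1b, 1600020E01Rik and BC005561, were lower in the double transgenics, with log2 differences of -1.41, -1.93, -0.73 and -0.74.

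G2/M genes of the T class were higher in 22 of 22, with a median of 1.42, and 5 had an unadjusted p below 0.05 (background 2.62%). Top2a was at 15.6, 7.99, 11.5, 108 and 51.2 against 168, 96.7, 46.3 and 143 CPM (log2 difference 1.65 ± 0.73, adjusted p = 0.9995). Bub1b and Bub1, kinases of the spindle checkpoint, were at 1.90, 1.597, 2.15, 6.77 and 5.21 against 18.5, 11.8, 3.06 and 11.9 CPM (log2 difference 1.77 ± 0.57, adjusted p = 0.9995) and 0.948, 1.28, 0.537, 8.12 and 2.09 against 10.96, 4.69, 2.98 and 10.8 CPM (log2 difference 1.96 ± 0.74, adjusted p = 0.9995). Kif11, a spindle kinesin, and Cenpe, a kinetochore kinesin, had log2 differences of 1.82 ± 0.65 and 1.88 ± 0.82. PRMT5 spleen 4, which had 128 T cells, was the highest single transgenic in Top2a, Bub1b and Bub1, and no gene of the list was free of overlap. Without it the median was 2.49, and over all single omissions it stayed between 1.08 and 2.49. The share of T cells with an Mki67 UMI after thinning was 0.679, 0.805, 0.227, 7.03 and 1.81% against 7.04, 3.59, 1.34 and 4.99% (exact permutation p = 0.238), a difference of 2.13 points that was 1.20 without PRMT5/TCL1 spleen 1 and 3.36 without PRMT5 spleen 4.

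Genes of naive and quiescent T cells were lower in 12 of 14. Their median was -0.50, but -0.24 without PRMT5 spleen 5, where Trbv12-1 led, and -0.30 without PRMT5 spleen 2. At an unadjusted p below 0.05, 2 were lower (background 1.92%), namely the cytokine receptor Il7r at 271, 605, 684, 70.4 and 201 against 137, 152, 192 and 57.0 CPM (log2 difference -1.45 ± 0.60, adjusted p = 0.9995) and Dapl1 at 13.3, 14.7, 16.99, 0 and 0.427 against 0.843, 3.06, 0.788 and 0.559 CPM (log2 difference -2.73 ± 1.06, adjusted p = 0.9995). Il7r was low in PRMT5 spleen 4 as well, so the groups overlapped. Immediate early genes were lower in 19 of 20 (median -0.53, -0.84 without PRMT5/TCL1 spleen 4 and -0.35 without PRMT5/TCL1 spleen 2), of which Atf3 and Klf4 did not overlap (Klf4 108, 38.3, 55.5, 35.2 and 41.9 against 26.1, 15.1, 10.1 and 29.8 CPM), where 0.595% of T-class genes were lower with no overlap. Heat shock genes were lower in 11 of 12 (median -0.39, and -0.66 without PRMT5/TCL1 spleen 4), and 4 had an unadjusted p below 0.05 (background 1.92%). These were Hspa1a and Hspa1b, given above, and Hspb1 and Hsph1, with Hspb1 at -3.22 ± 0.97 and Hsph1 at -0.84 ± 0.32 on the log2 scale. Checkpoint receptors and exhaustion genes were higher in 12 of 15, but with a median of 0.19 that was -0.10 without PRMT5/TCL1 spleen 4, -0.04 without PRMT5 spleen 5 and 0.42 without PRMT5 spleen 4. Pdcd1 was at 216, 128, 150.3, 154 and 4.88 against 138, 151, 279 and 319.7 CPM, and the groups overlapped apart from the low PRMT5 spleen 5. Cytotoxic effector genes (9 of 20 higher, median -0.15), regulatory T cell genes (6 of 13, median -0.02), follicular helper genes (3 of 11, median -0.30), T-cell receptor signalling genes (12 of 18, median 0.09) and interferon-stimulated genes (15 of 26, median 0.05) had no member past an unadjusted p of 0.05 except Rsad2, at 1.78, 0.639, 1.70, 1.35 and 3.22 against 5.90, 7.65, 1.93 and 6.71 CPM (log2 difference 1.54 ± 0.53, adjusted p = 0.9995). PRMT5/TCL1 spleen 3 was the double transgenic within the single transgenic range of Rsad2. Of these 5 medians, 4 changed sign with 1 mouse left out. Cytotoxic genes were higher in 13 of 20 with a median of 0.21 without PRMT5 spleen 4, and over all single omissions the median spanned -0.29 to 0.21. The other spans were -0.43 to 0.34 for regulatory, -0.12 to 0.14 for receptor signalling and -0.04 to 0.18 for interferon-stimulated genes. Receptor signalling genes were higher in 10 of 15 (median 0.04) without Cd3d, Cd3e and Cd3g, whose UMIs chose the cells. Follicular helper genes stayed below 0, at -0.60 to -0.01.

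No gene of the myeloid class passed either, 0 of 8962 by edgeR (0%) and 0 of 8936 by DESeq2 (0%), with 225 (2.51%) at an unadjusted p below 0.05 in edgeR's test. By that test 120 (1.34%) of these were higher and 105 (1.17%) lower. Ass1, the argininosuccinate synthase, had the smallest p, at 119, 108, 79.0, 256 and 188 CPM in the PRMT5 spleens and 222, 405, 382 and 391 CPM in the PRMT5/TCL1 spleens. PRMT5 spleen 4 lay above PRMT5/TCL1 spleen 1, with a log2 difference of 1.23 ± 0.35 (SE; adjusted p = 0.9999). Rgs2, a regulator of G-protein signals, was at 139, 218, 92.3, 66.8 and 194 against 64.4, 71.4, 64.9 and 40.0 CPM (log2 difference -1.21 ± 0.36, adjusted p = 0.9999), and Bnip3, a mitophagy receptor induced by low oxygen, at 16.1, 24.05, 24.1, 41.9 and 17.6 against 14.3, 12.97, 11.02 and 14.1 CPM (log2 difference -1.01 ± 0.31, adjusted p = 0.9999). Bnip3, Sord (10.9 to 17.6 CPM against 19.1 to 33.3 CPM) and Dnttip1 (14.1 to 27.5 CPM against 6.77 to 13.7 CPM) were the genes of the leading 10 with no overlap, where 0.982% of all myeloid genes had none, 0.703% with higher and 0.279% with lower values in PRMT5/TCL1 spleens. The rest were Stfa2, Slc25a33, Ski, 1600010M07Rik and Rfxap, all lower, with log2 differences of -4.22 to -1.06.

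Interferon-stimulated genes were higher in 21 of 24 in myeloid cells, with a median of 0.61, and 3 had an unadjusted p below 0.05 (background 1.34%). Among them Oas1a, an activator of RNase L, was at 22.3, 34.4, 13.3, 57.1 and 20.6 against 45.3, 47.2, 66.9 and 147 CPM (log2 difference 1.34 ± 0.46, adjusted p = 0.9999) and Oasl2 at 8.18, 17.2, 17.04, 66.6 and 8.82 against 31.01, 42.3, 79.0 and 105 CPM (log2 difference 1.33 ± 0.57, adjusted p = 0.9999). PRMT5 spleen 4 reached into the range of the double transgenics in both. Without that library 23 of 23 genes were higher, with a median of 1.54, and edgeR called 5 of 8420 genes (0.0594%), namely Iigp1, Gbp6, Gbp7, Cxcl9 and Gm4951, none of which is in the list. Iigp1, an immunity-related GTPase, was at 0.564, 0, 0, 231 and 0 against 7.16, 40.4, 56.7 and 42.9 CPM with all mice. Its ratio without PRMT5 spleen 4, from 2 against 884 UMIs, was 144 per UMI of the class (95% exact interval 39.7 to 1191, counting error only; adjusted p = 0.0167). Cxcl9, the chemokine that draws CXCR3+ T cells, was at 0.564, 0, 0, 322 and 2.94 against 50.1, 45.6, 26.5 and 8.46 CPM, a ratio of 82.5 (28.1 to 401) without that library. Gbp7 was at 16.4, 5.15, 8.99, 125.8 and 5.88 against 64.4, 48.7, 56.1 and 45.1 CPM. In these genes PRMT5 spleen 4 was higher than every double transgenic and the other 4 single transgenics lower, and the log2 differences with all mice were -0.42, -1.18 and 0.51. This omission gave the most myeloid calls of all single omissions, and it removed the highest library in these genes. The adjusted p-values without it therefore describe the remaining mice and are not a test of the 2 genotypes. Without PRMT5 spleen 3 the median of the listed genes was 0.33, with 15 of 23 higher, and without PRMT5 spleen 2 it was 0.38.

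**Figure D4:**
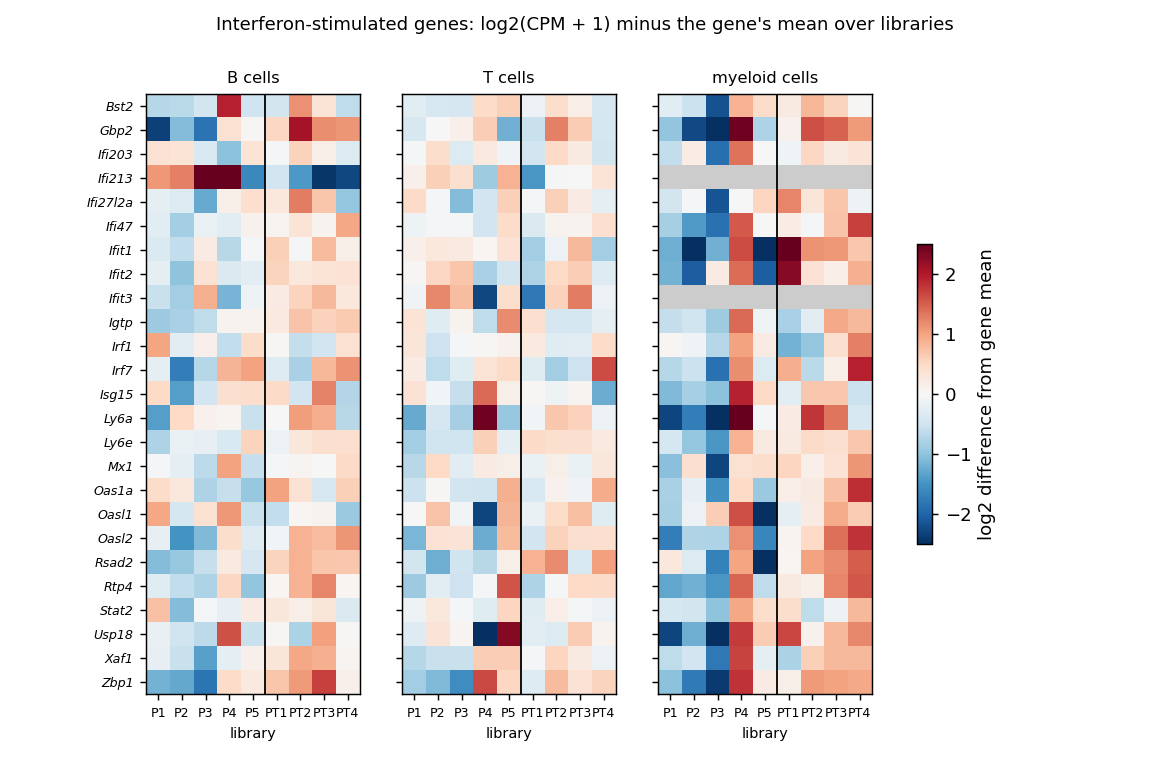
Log2 level of 25 interferon-stimulated genes relative to the mean of the 9 libraries (colour), with genes in rows and libraries in columns (P1 to P5, PRMT5 spleens; PT1 to PT4, PRMT5/TCL1 spleens), in B, T and myeloid cells. In the myeloid panel P4 stands apart from the other single transgenics, as in Oasl2 at 66.6 CPM beside 8.18 to 17.2 CPM, and the medians of the group difference are 0.64 in B, 0.05 in T and 0.61 in myeloid cells.

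Among granulocyte genes, primary granule genes were higher in 8 of 9, with Mpo at 189, 68.7, 154, 199 and 185 against 153, 543, 381 and 314 CPM (log2 difference 1.13 ± 0.38, adjusted p = 0.9999), and mature neutrophil genes were lower in 15 of 16. The primary granule median was 0.32, and 0.65 without PRMT5 spleen 4, 0.12 without PRMT5/TCL1 spleen 2 and 0.16 without PRMT5/TCL1 spleen 3. The mature neutrophil median was -0.58, and -0.35 without PRMT5 spleen 2 and -0.88 without PRMT5/TCL1 spleen 3. In Mpo, 3 double transgenics were above every single transgenic, and PRMT5/TCL1 spleen 1, with 54 myeloid cells, was in their range. Ccl6, a chemokine of mature neutrophils and macrophages, was at 460.2, 345, 346, 305 and 691 against 289, 172, 235 and 257 CPM with no overlap (log2 difference -0.85 ± 0.30, adjusted p = 0.9999), and Wfdc17 at 863, 259, 507, 648 and 506 against 234, 261, 331 and 77.8 CPM (log2 difference -1.30 ± 0.43, adjusted p = 0.9999). S100a8 ran from 615 to 71579 CPM against 5229.6 to 44441 CPM, with the lows in PRMT5 spleen 5 and PRMT5/TCL1 spleen 4. Secondary granule genes were higher in 4 of 13 (median -0.13), and in 3 of 12 (median -0.14) without Lyz2, whose UMIs chose the cells. The median was 0.22 with 8 of 13 higher without PRMT5 spleen 3, and 0.11 with 9 of 13 higher with sex as a covariate. It was -0.42 without PRMT5 spleen 5, -0.32 without PRMT5/TCL1 spleen 3 and -0.28 without PRMT5 spleen 4. G2/M genes were higher in 22 of 22 (median 0.54), with Top2a at 92.5, 63.6, 137, 157 and 55.9 against 148, 262, 231 and 152 CPM (log2 difference 0.95 ± 0.33, adjusted p = 0.9999), and the median was between 0.40 and 0.66 over all single omissions. Ccna2, cyclin A2, and Aurkb, a mitotic kinase, had log2 differences of 0.88 ± 0.35 and 0.97 ± 0.43. Primary granule genes mark immature cells of this lineage, and the part that the makeup of the class had in these values was not tested.

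The direction of monocyte genes turned on single libraries and on the covariate. They were higher in 10 of 16 with a median of 0.14, and in 7 of 16 with a median of -0.03 with sex as a covariate. The median was -0.11 without PRMT5/TCL1 spleen 4 and -0.07 without PRMT5 spleen 3, each with 6 of 16 higher. It was 0.29 without PRMT5 spleen 5, and 0.02 and 0.04 without PRMT5 spleens 2 and 4. Ms4a4c was at 80.4, 55.0, 28.4, 85.9 and 103 against 93.0, 131, 93.7 and 213 CPM (log2 difference 0.94 ± 0.37, adjusted p = 0.9999), and macrophage genes were higher in 2 of 12 (median -0.56, and -0.91 without PRMT5/TCL1 spleen 4). Apoe, a lipid carrier of macrophages, was at 401, 424, 188, 158 and 376 against 222, 17.3, 55.3 and 204 CPM (log2 difference -1.35 ± 0.63, adjusted p = 0.9999), and the groups overlapped. Genes of tumour-associated macrophages were higher in 8 of 12 (median 0.03), checkpoint ligands in 5 of 9 (median 0.00) and cytokines and chemokines in 8 of 16 (median -0.05), and these 3 medians changed sign with the mouse left out, spanning -0.09 to 0.13, -0.20 to 0.20 and -0.44 to 0.13. Ccl4, an inflammatory chemokine, had a log2 difference of -1.26 ± 0.56. Tnfsf13b, the B-cell survival factor BAFF, was at 10.2, 17.2, 11.8, 8.03 and 2.94 against 9.54, 20.8, 24.9 and 22.6 CPM (log2 difference 1.02 ± 0.34, adjusted p = 0.9999). In Tnfsf13b, 3 of the 4 double transgenics exceeded all single transgenics and PRMT5/TCL1 spleen 1 did not. Class II genes were higher in 4 of 10 with a median of -0.19, which became 0.26 with sex as a covariate. The median was -0.51, -0.49 and -0.44 without PRMT5 spleens 3, 2 and 1. It was 0.74 without PRMT5 spleen 5, whose 36 myeloid cells held H2-Ab1 at 3432 CPM beside 192 to 977 CPM in the other single transgenics. Without TMM scaling, summed dendritic cell markers in the myeloid class were at 202 CPM in that library, with Cd209a at 142, Xcr1 at 33.1 and Flt3 at 26.5 CPM. They were at 0 to 24.1 CPM in the other 8 libraries, and their part in the class II values was not tested.

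**Figure D5:**
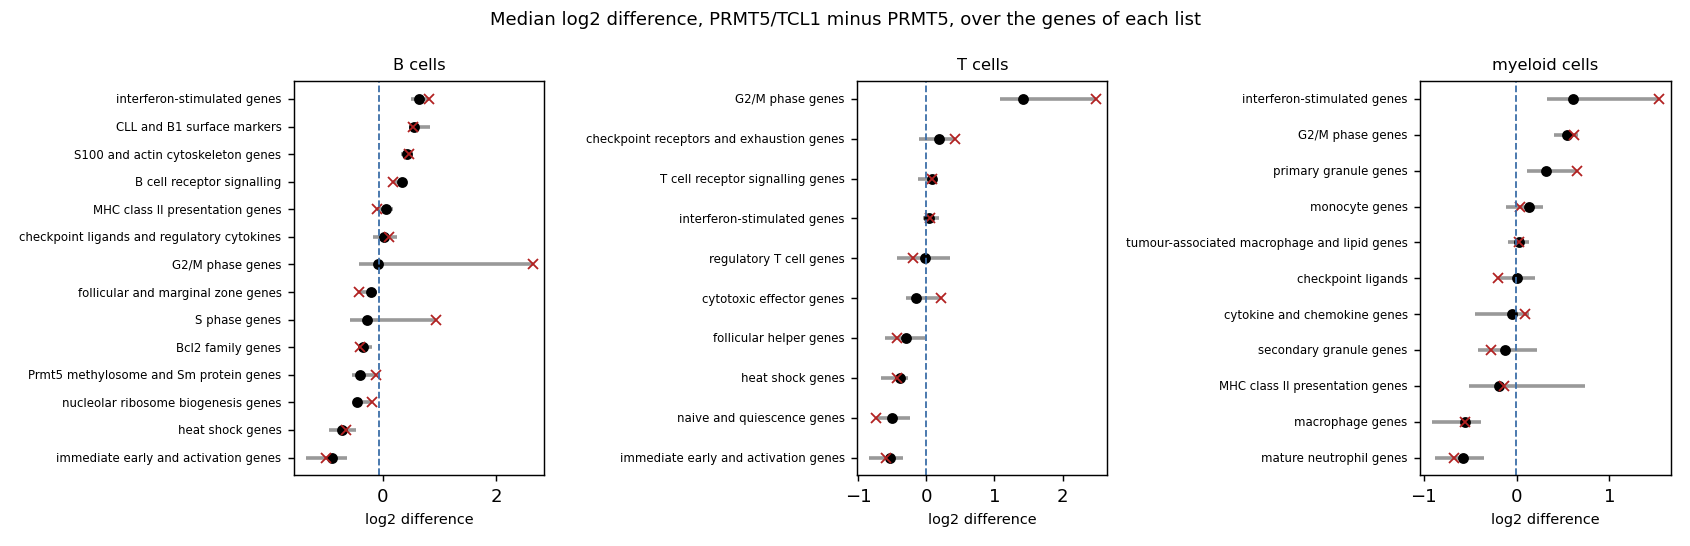
Median log2 difference of each gene list, PRMT5/TCL1 over PRMT5 (x axis), in B, T and myeloid cells. Grey bars give the range with each mouse left out in turn, red crosses the value without PRMT5 spleen 4 and dashed lines the median of all genes. B-cell G2/M genes lie at -0.09 with all mice and at 2.65 without that library, and B-cell immediate early genes stay between -1.36 and -0.62.

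Whether the difference between the genotypes itself differed between classes was tested with the mouse as a block. Between B and T cells no gene of 12043 passed (0%), and 815 (6.77%) had an unadjusted p below 0.05 in edgeR's test. Between B and myeloid cells 1 gene of 11027 passed (0.00907%), Rras2, which encodes a Ras-family GTPase, and 696 (6.31%) had an unadjusted p below 0.05. In B cells Rras2 was at 87.4, 22.1, 39.2, 26.8 and 23.3 against 21.2, 1.86, 4.30 and 14.3 CPM, with a log2 difference of -1.89 ± 0.67 (SE; adjusted p = 0.702). Myeloid cells held 7, 0, 1, 4 and 0 Rras2 UMIs in PRMT5 spleens and 2, 15, 5 and 7 in PRMT5/TCL1 spleens, so the contrast of -4.21 ± 0.52 (adjusted p = 0.0432) rests on few myeloid UMIs. In T cells Rras2 was at 55.8 to 112 CPM against 35.0 to 87.6 CPM. The call was lost when any mouse but PRMT5 spleen 5 was left out.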

How the data were processed

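The spleen libraries were made with the 10x Genomics 3′ kit (v2) and, per the labels, processed with Cell Ranger 2.0.1 and Seurat 2.2.1 against mouse genome build GRCm38. The authors deposited UMI counts, which are raw and unnormalised, for 31053 genes and all barcodes. The headers of these count matrices name software version 3.1.0, which differs from the labels.

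Barcodes were filtered and classed by the marker counts given above, thresholds that were fixed with earlier results of these data known, as were the gene lists. UMI counts were summed per library and class and tested in edgeR 4.0.16 (R 4.3.3, limma 3.58.1; TMM scaling, filterByExpr with a minimum count of 10, robust quasi-likelihood fit) on 5 PRMT5 against 4 PRMT5/TCL1 mice with no covariate; a library needed 20 cells of a class. DESeq2 1.42.0 was an alternative. The contrast between classes had 1 coefficient per mouse. Shares were compared by exact two-sided permutation over 126 regroupings (Python 3.11.15, scipy 1.17.1), each cell thinned to 1500 UMIs, with Benjamini-Hochberg adjustment over 20 tests. The tests were checked on simulated data with 200 changed genes.

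Named genes were, per class, called genes of 20 CPM or more without overlap, or, with fewer than 5 calls, the 10 with the smallest p at 20 CPM or more, antigen receptor, Xist and Y-linked genes left out. For each list the genes of highest level were added, at most 4. Other list members were named where p was below 0.05 or the groups did not overlap. Sparc, Fcer2a, Eps8, Cks1b, Rras2, Cd5, Igkc, Gbp7, Isg15 and the genes called only in alternatives were chosen after their values were seen. Coordinates are from GENCODE vM21 and promoters from RefSeq. Doublets were not removed in the main results: the automatic Scrublet threshold (scanpy 1.11.5) marked too few cells to be used, so leaving out the highest scores, 0.8% per 1000 cells, was tried. Sex was read from the data (4 females and 1 male against 3 females and 1 male) and tried as a covariate. The males were PRMT5 spleen 5 and PRMT5/TCL1 spleen 4, both among the libraries that stood apart. Values with sex as a covariate therefore cannot be told apart from the traits of those libraries. Replicate numbers were taken as names of mice and not as pairs. The values of 1 listed gene are not reported here. Counting intervals cover counting error only.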

Additional observations from a re-analysis of the deposited data

Results flagged for a closer look

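In groups of 4 or 5 mice, 15 of 100 groups had a sample whose gap to its nearest neighbour was beyond the 95% limit of Dixon's test. Chance gives about 5% where groups are independent and values normal. These groups come from the same mice and include linked shares and genes chosen by p. The count of 15 therefore cannot be read as an excess. PRMT5 spleen 4 stood apart in its share of myeloid cells (27.05%), its share of unclassified barcodes (51.0%), the thinned share of B cells with Mki67 (12.2%), the share of T cells with Mki67 (7.03%), the share of myeloid cells with C1q (11.2%) and with Mpo (8.59%), and Kif22 in T cells (16.2 CPM). PRMT5/TCL1 spleen 4 stood apart in the share of B cells with Cd69 (26.4%), in Tmem65 (15.1 CPM) and Atf3 (24.03 CPM) in T cells, and in Sord in myeloid cells (33.3 CPM). PRMT5/TCL1 spleen 1 stood apart in the share of myeloid cells with C1q (3.70%) and in Ass1, where it was the low sample (222 CPM). PRMT5 spleen 5 stood apart in Gm30211 in B cells (566 CPM) and PRMT5 spleen 1 in Gadd45b in B cells (746 CPM).

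Rras2 differed between B and myeloid cells in its difference between the genotypes, by -4.21 on the log2 scale in the test of the difference itself.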

How the results depend on the processing

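Each gene test was refitted with other scaling, filters, tools, class limits and covariates and with each mouse left out. The 30 genes named for the smallest p in the 3 classes kept their sign in 655 of 655 fits. Of these fits 12 passed the threshold, all with DESeq2. These genes were chosen by p, which favours a stable sign. Other genes named above did change sign, as Cks1b in B cells and Iigp1 and Cxcl9 in myeloid cells without PRMT5 spleen 4. With all 9 mice, the number of B genes called was 70 with DESeq2 and 1 with no low-count filter, and of T genes 8 with DESeq2; the cause was not tested. Leaving out mice in turn gave 0 to 4 calls in B cells and 0 to 5 in myeloid cells, the upper value in each without PRMT5 spleen 4, 0 to 1 for B against T (Lrrk2 without PRMT5 spleen 4, Igkv1-117 without PRMT5/TCL1 spleen 4) and 0 to 2 for B against myeloid (Fcgr4 and Rras2 without PRMT5 spleen 5). The replicate block gave 0 calls in each class. Correlations of deviations between mice of the same number ran from -0.15 to 0.30. Mice of different numbers were not compared, so these correlations cannot show whether the numbers pair mice. Scaling by library totals moved the median of all genes to -0.02 in B, 0.13 in T and 0.08 in myeloid cells and the genes higher from 43.7 to 48.0%, 49.2 to 66.2% and 48.9 to 60.1%. Some list medians changed sign with all 9 mice. With library totals the median was 0.25 for G2/M genes in B cells, 0.03 for cytotoxic and 0.15 for regulatory genes in T cells and 0.05 for myeloid cytokines. With the replicate block it was 1.84 for G2/M and 0.09 for S phase genes in B cells, 0.01 for cytotoxic and -0.14 for checkpoint genes in T cells and 1.18 for class II genes in myeloid cells. The block also moved the median, with its sign kept, to -0.10 for naive T cell genes (6 of 14 higher), -0.07 for follicular, 0.26 for class II and 0.44 for checkpoint ligand genes in B cells, -0.48 for regulatory, -0.54 for follicular helper, 0.15 for receptor signalling and 0.18 for interferon-stimulated genes in T cells, and -0.38 for secondary granule, 0.29 for monocyte, -0.25 for macrophage and 1.13 for interferon-stimulated genes in myeloid cells. With sex as a covariate it was -0.06 for checkpoint ligands in B cells, 0.08 for regulatory genes in T cells, and 0.11 for secondary granule, -0.03 for monocyte and 0.26 for class II genes in myeloid cells.

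Of the alternatives for the 20 shares, 218 kept the direction and 22 reversed it. Unclassified barcodes turned to 0.104 points at 3000 UMIs and Mki67 in B cells to -2.80 without thinning. Leaving out each mouse in turn, the difference spanned -5.24 to 4.76 points for myeloid cells, -6.34 to 4.01 for unclassified barcodes, -0.695 to 2.78 for Mki67 in B cells, -1.49 to 1.91 for Cd4, -3.66 to 13.5 for Ccl5 and -0.0435 to 0.541 for Foxp3 in T cells, and -18.3 to 0.697 for S100a8 with S100a9 and -2.08 to 1.05 for C1q in myeloid cells.

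Depth was a limit: with 302036 UMIs in the smallest myeloid sum, low genes there rest on few molecules, and 5 mice against 4 cannot give a share test below 0.0159.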
